A study of Mus musculus with 4 samples.

Results

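Genes of the interferon response and of the major histocompatibility complex (MHC) were examined in mouse testis. The members were chosen by gene symbol alone: symbols that begin with Ifi, with H2-, with Oas, or with Gbp, Irf or Stat and a digit, together with Isg15, Mx1, Mx2, B2m, Tap1, Tap2, Ddx58 and Ifih1, leaving out 2 pseudogene symbols that end in ps. This gave 89 of the 25265 genes in the deposited count table, of which 82 were annotated as protein-coding. The 4 RNA-seq libraries came from whole testes of C57BL/6 mice at postnatal day 56, of which 2 carry the label control and 2 the label Ythdf2-vKO. The series title describes the mutants as lacking Ythdf2, a reader of the m6A mark on RNA, in germ cells only. The Cre driver and the deleted segment are not given in the sources used here, and the labels do not tie libraries to animals, so p-values measure the spread between these libraries. RNA was extracted with Trizol and depleted of ribosomal RNA before directional library preparation, per the labels' protocols.

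Interferons bind receptors that activate STAT transcription factors. Type I interferon acts through a complex that holds STAT2 and IRF9 and binds the interferon-stimulated response element (ISRE), and interferon gamma acts through the gamma-activated site (GAS). Their targets include cytosolic sensors of foreign nucleic acid, antiviral effectors such as the OAS, MX, IFIT and IFITM proteins, guanylate-binding GTPases, and the MHC molecules that present peptides to T cells. The testis is known as a site of restrained immune responses, in which MHC class II is carried mainly by resident macrophages and other immune cells and classical class I is low on germ cells.

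The members fell into 8 groups by role: 16 IRF and STAT transcription factors, 3 IRF2-binding proteins, 11 sensors of RNA or DNA, 25 antiviral effectors, 10 guanylate-binding proteins, 5 genes of classical MHC class I presentation with B2m and the Tap transporters, 13 genes of MHC class Ib and 6 of MHC class II. Many lie in gene clusters. In the GENCODE M21 annotation of build GRCm38, 21 members with the H2- prefix lie at chr17:33974659-37274484, with Tap1 and Tap2 among them, and 9 members of the Ifi200 family at chr1:173519717-174031810. The guanylate-binding proteins form a cluster of 5 at chr3:142493978-142638008 and another of 5 at chr5:105014150-105346472.

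Promoter sequence was available for 69 members in the RefSeq table for build GRCm38.p6, which covers 250 bases before to 50 bases after each start. The ISRE letters GAAANNGAAA, searched on both strands, were present in 29 of those 69 members, a share of 42.0% against 3.99% of all 27025 genes in the table. The GAS letters TTCNNNGAA, a palindrome, were present in 13 members, 18.8% against 9.55% of all genes. An ISRE and a GAS match overlapped in 1 member promoter. By role, ISRE letters were found in 5 of 5 guanylate-binding proteins, 8 of 10 sensors and 10 of 19 effectors, but in 1 of 4 class I genes, 2 of 9 class Ib genes and 0 of 5 class II genes. A match is a description of the letters in the window, not evidence of binding. The Stat4 match lies before a start inside the gene as annotated in GENCODE M21 (chr1:51987148-52107189), and the match itself is inside that gene. The same holds for Gbp2 (chr3:142620602-142638008), H2-T23 (chr17:36029773-36032855) and Ifi203 (chr1:173920407-173942672). Whether those starts are used in these libraries was not tested. The sequences below, each read in the direction of transcription, are from members on which the results turn, with the ISRE match in capitals (TTTCNNTTTC is the same element on the other strand).
Gbp2, chr3:142620574-142620643, plus strand: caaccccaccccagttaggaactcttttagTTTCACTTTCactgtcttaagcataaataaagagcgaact
B2m, chr2:122147518-122147587, plus strand: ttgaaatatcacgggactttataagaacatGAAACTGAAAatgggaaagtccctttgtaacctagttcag
H2-T23, chr17:36032786-36032855, minus strand: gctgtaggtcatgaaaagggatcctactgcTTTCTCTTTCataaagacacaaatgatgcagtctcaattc
Ifi203, chr1:173942493-173942557, minus strand: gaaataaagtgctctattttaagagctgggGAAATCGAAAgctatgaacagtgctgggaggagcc
Ifitm2, chr7:140955968-140956037, minus strand: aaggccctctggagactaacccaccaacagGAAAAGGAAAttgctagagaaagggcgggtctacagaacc
Stat2, chr10:128270248-128270315, plus strand: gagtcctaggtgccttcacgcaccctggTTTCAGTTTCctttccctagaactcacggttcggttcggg
Stat4, chr1:52008113-52008182, plus strand: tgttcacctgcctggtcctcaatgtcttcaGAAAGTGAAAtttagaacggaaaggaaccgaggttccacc

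**Figure D1:**
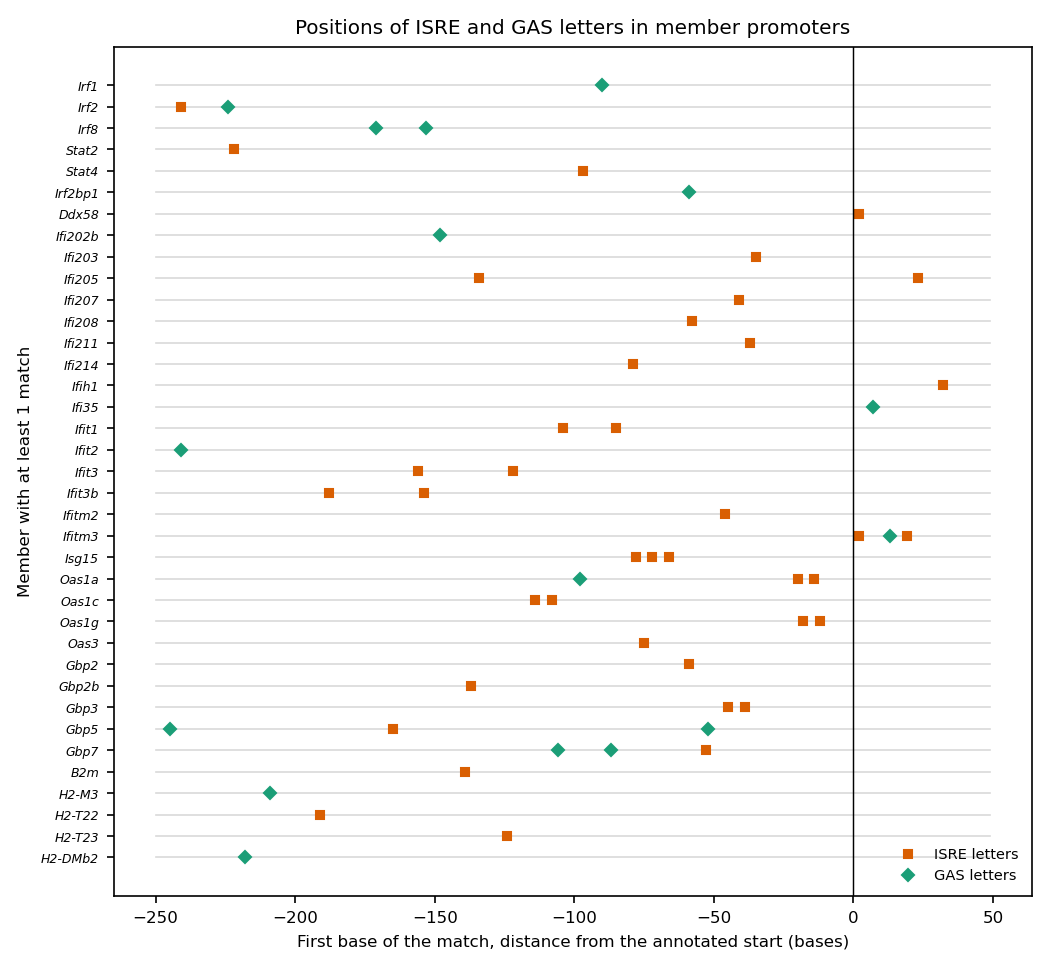
Positions of ISRE letters (squares) and GAS letters (diamonds) in the promoter windows of the members with at least 1 match, ordered by role. The x axis gives the distance of the first base of a match from the annotated start, in bases. The 29 members with ISRE letters are mostly sensors, effectors and guanylate-binding proteins, and most matches lie before the start.

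Total counts were 24862518 and 29561182 in control libraries 1 and 2 and 26298245 and 26265700 in the libraries labelled vKO. Levels below are in CPM: the count divided by the library total, adjusted by the trimmed mean of M-values (TMM), and multiplied up to a fixed library size. The values of the targeted gene are given first. Ythdf2 had 51.0 and 53.5 CPM in the control libraries and 66.3 and 67.0 CPM in those labelled vKO, a log2 fold change of 0.35 (SE 0.13, edgeR quasi-likelihood test, Benjamini-Hochberg adjusted p = 0.238). It was therefore not lower in the libraries labelled vKO, and a group name below stands for the label alone. Over the whole table, 83 of 21132 genes passed an adjusted p of 0.05; of these, 59 had their higher level in the libraries labelled vKO and 24 had their lower level there.

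Most members were expressed at a low level. Of the 89, 72 passed the filter on low counts and were tested, and 58 reached a mean of 1 CPM. The other 17 had between 11 and 41 counts over the 4 libraries together, and among them were Irf4, Oas3, Ifi205, Gbp2b, Gbp6 and H2-T10. Per kilobase of transcript, the highest level was that of Stat4, a STAT known for signalling downstream of interleukin 12, at 70.7 CPM per kb. The next were the class I heavy chain H2-K1 at 46.6 CPM per kb and the class I light chain B2m at 43.6 CPM per kb, followed by Irf3 at 34.3 CPM per kb and Ifitm7 at 32.9 CPM per kb. Among class II genes, the beta chain H2-Ab1 was highest at 8.38 CPM per kb. Interferon ligand transcripts were scarce: Ifnk had 2 and 4 counts in the control libraries and 5 and 3 in those labelled vKO, and Ifnab had 6 and 14 against 11 and 13.

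**Figure D2:**
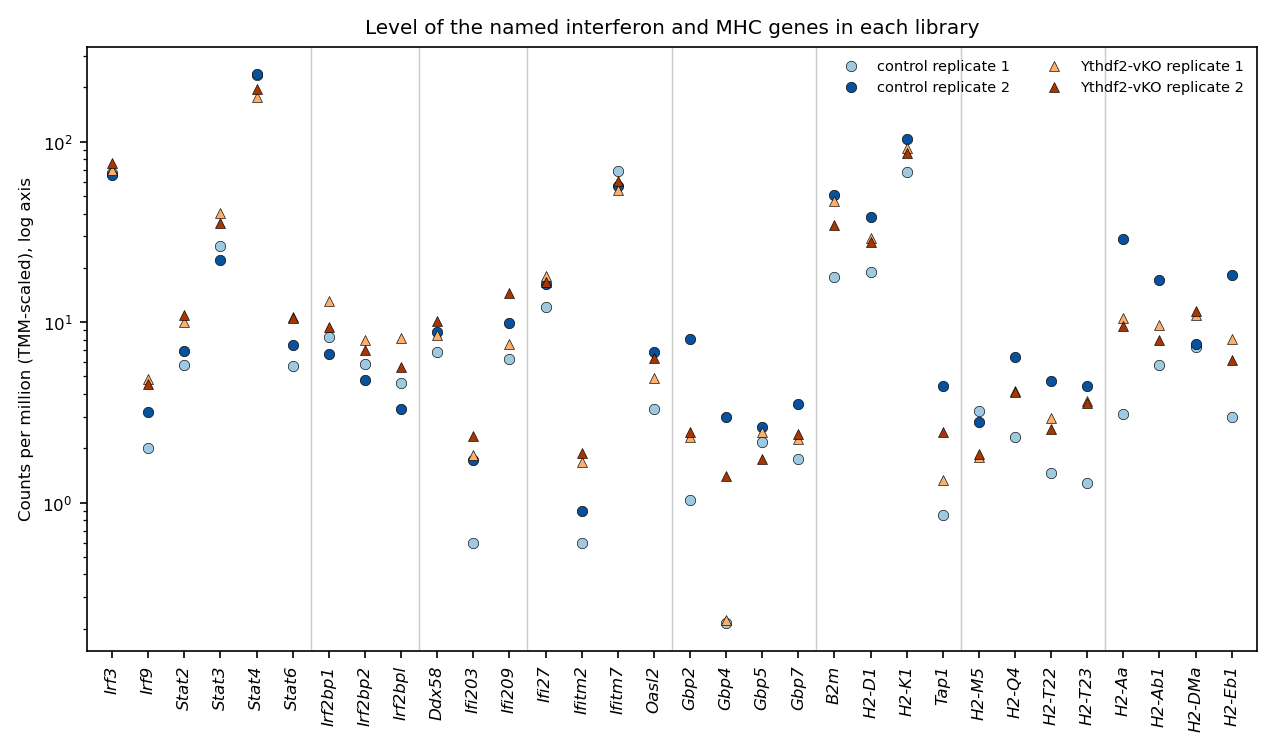
CPM of the named members in each of the 4 libraries on a log axis, grouped by role. Stat4, H2-K1, Ifitm7 and Irf3 sit highest, and in many MHC and guanylate-binding genes the control libraries lie at opposite ends with both libraries labelled vKO between them.

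The widest differences among the members lay between the 2 control libraries. Control library 2 was above control library 1 in 58 of the 72 members tested, 80.6% against 50.3% of all genes tested. It was more than 2-fold above in 35 members, 48.6% against 4.14% of all genes. The median signed gap from control 1 to control 2 was 0.94 on the log2 scale in members and 0.00 in all genes. The median absolute gap between the controls was 0.94 in members and 0.24 in all genes. Between the libraries labelled vKO, the median absolute gap was 0.24 in members and 0.19 in all genes. Control library 1 was the lowest of the 4 in 51 members (70.8%, against 26.7% of all genes), and control library 2 was the highest in 36 of the 72 (against 26.3% of all genes). In 30 members (41.7%, against 7.73% of all genes), both libraries labelled vKO lay above control 1 and below control 2.

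The gap was not spread evenly over the roles. Its median was 1.77 (log2) in guanylate-binding proteins, 1.56 in class II, 1.44 in class Ib, 1.34 in class I, 1.07 in effectors and 0.98 in sensors. In transcription factors it was 0.18, and in the IRF2-binding proteins it was -0.31, in the opposite direction. Summed over the 5 class I genes, the level was 107 CPM in control 1 and 200 CPM in control 2, with 172 and 154 CPM in those labelled vKO. The guanylate-binding proteins summed to 7.87 and 26.0 CPM in the control libraries and to 10.3 and 12.8 CPM in those labelled vKO. The transcription factors summed to between 370 and 402 CPM in all 4 libraries, but that sum is mostly a few abundant genes. Stat4 alone gave 233 and 236 CPM of it in the controls and 177 and 197 CPM in those labelled vKO. Of the 15 transcription factors tested, 2 had a control gap above 2-fold. Of the 21 tested members with ISRE letters in a promoter window, 11 had a control gap above 2-fold, with a median of 1.5 (log2). Of the 37 tested members with a window but no such letters, 15 had one, with a median of 0.70. The difference between these sets was not tested.

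**Figure D3:**
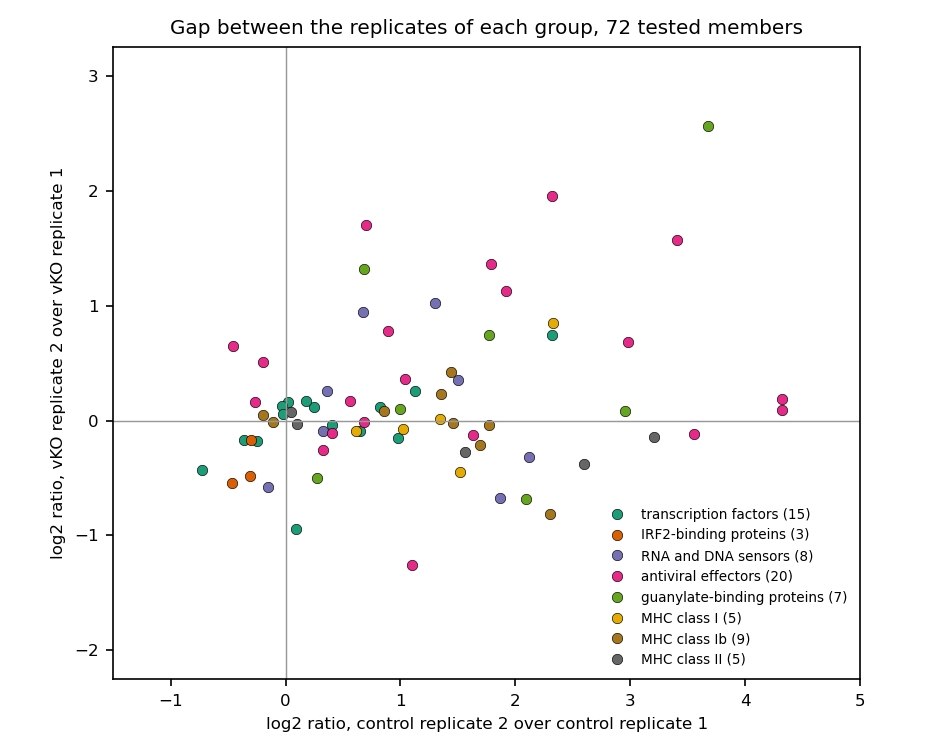
Log2 ratio of replicate 2 over replicate 1 in the control pair (x axis) and in the pair labelled vKO (y axis), 1 point for each of the 72 tested members, coloured by role. On the x axis 58 points lie above 0, and 35 of them above 1 (2-fold), while on the y axis the median absolute value is 0.24.

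Between the genotypes as labelled, 0 of the 72 members tested passed the adjusted p threshold of 0.05 with edgeR's quasi-likelihood test, where 0.393% of all genes did (0.279% in the higher direction and 0.114% in the lower). The lowest adjusted p of a member was 0.0878, for Stat3. At an unadjusted p under 0.05, 12 members (16.7%) differed, against 14.1% of all genes. Of these, 9 were higher in the libraries labelled vKO (12.5%, against 7.65% of all genes) and 3 were lower (4.17%, against 6.47%). The groups did not overlap in 24 members (33.3%), below the share in all genes (45.3%): both libraries labelled vKO were above both controls in 19 and below in 5, where all genes gave 22.7% and 22.6%. The median log2 fold change of members was 0.21, against 0.00 in all genes. Without control library 1 that median was -0.23, and without control library 2 it was 0.81.

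In the authors' deposited table, 49 members had an adjusted p-value, and 1 of them, Stat3, was under 0.05, where 1.32% of all 16448 genes with a value were. Its log2 fold change there was 0.65 (SE 0.18) and its adjusted p 0.0317.

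**Figure D4:**
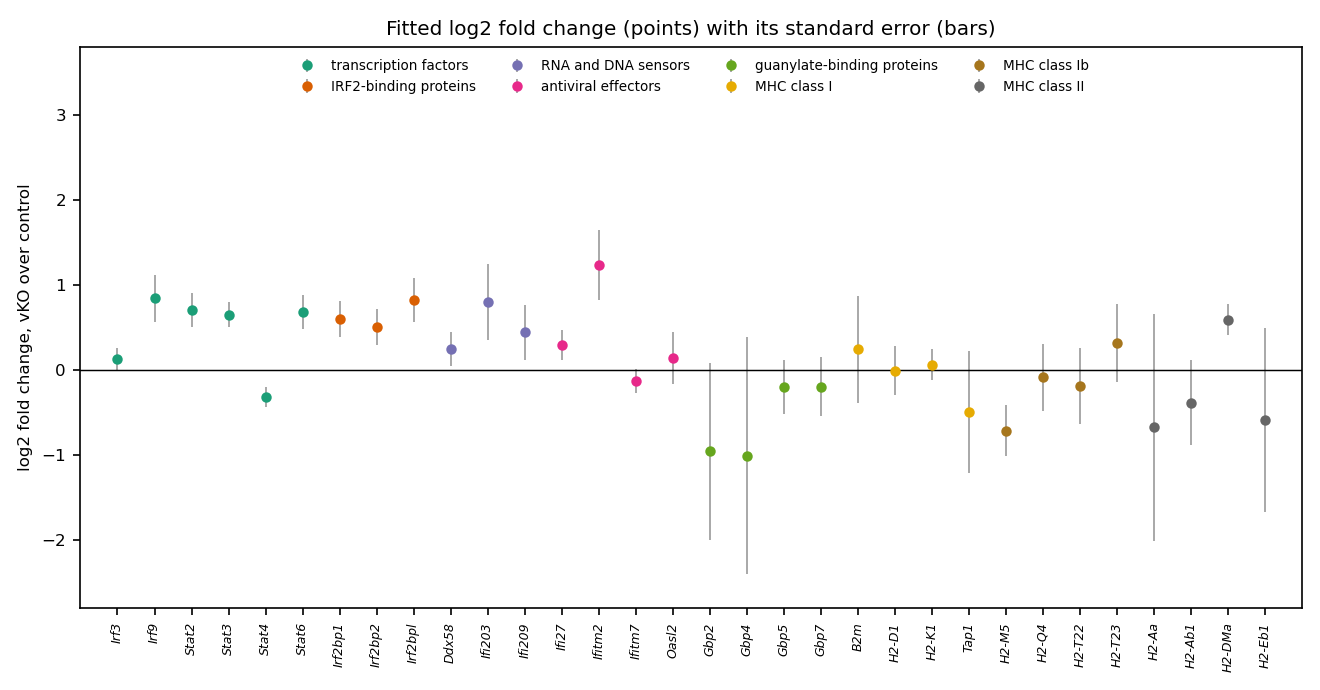
Log2 fold change (libraries labelled vKO over control) of the named members by role, with bars of 1 standard error. All 3 IRF2-binding proteins and Stat2, Stat3, Stat6 and Irf9 lie above 0 with narrow bars, and the bars of many MHC and guanylate-binding genes are wide and cross 0, such as the SE of 1.34 for H2-Aa.

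Among the transcription factors, the members with the smallest p-values were higher in the libraries labelled vKO and did not overlap with the controls. Stat3, which transmits signals of interleukin 6 and related cytokines, had 26.3 and 22.1 CPM in the control libraries and 40.4 and 35.5 CPM in those labelled vKO. Its log2 fold change was 0.65 (SE 0.15, edgeR adjusted p = 0.0878). It passed the threshold with library totals in place of TMM (log2 fold change 0.72, edgeR adjusted p = 0.0315, where 1.03% of all genes were called), with DESeq2 (adjusted p = 0.0317), and when either control library was left out. It did not pass without library 1 labelled vKO (edgeR adjusted p = 0.585) or without library 2 labelled vKO (adjusted p = 0.108). It kept its direction without control 1 (log2 fold change 0.77) and without control 2 (0.53).

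Stat2 and Irf9, which act together in the type I interferon response, both had higher values in the libraries labelled vKO. Stat2 had 5.82 and 6.94 CPM in the control libraries and 9.97 and 10.9 CPM in those labelled vKO (log2 fold change 0.70, SE 0.20, edgeR adjusted p = 0.144). Irf9, the DNA-binding partner, had 2.01 and 3.17 against 4.82 and 4.52 CPM (log2 fold change 0.84, SE 0.28, edgeR adjusted p = 0.209). Stat6, the STAT of interleukin 4 signalling, had 5.69 and 7.51 against 10.7 and 10.5 CPM (log2 fold change 0.68, SE 0.20, edgeR adjusted p = 0.166). None of these differences passed the adjusted threshold.

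Stat4 was lower in both libraries labelled vKO, with 233 and 236 CPM in the controls and 177 and 197 CPM in those labelled vKO. The control libraries were nearly equal, with a ratio of 1.01 (exact 95% interval 0.977 to 1.05, counting error only). The log2 fold change was -0.32 (SE 0.12, edgeR adjusted p = 0.247), and it was -0.34 and -0.31 without control 1 and control 2. Irf3, which is activated downstream of cytosolic RNA and DNA sensors, differed less: it had 67.2 and 65.7 CPM in the controls and 69.6 and 76.2 CPM in those labelled vKO (log2 fold change 0.13, edgeR adjusted p = 0.699). Irf1 and Irf7, both themselves interferon targets, showed the pattern of the MHC genes instead. Both are named after their values were seen, and Irf7 had 0.685 CPM in control 1, 3.50 in control 2, and 1.91 and 3.19 in the pair labelled vKO.

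All 3 IRF2-binding proteins, nuclear cofactors that take their name from binding IRF2, were higher in both libraries labelled vKO than in either control. Irf2bpl had 4.58 and 3.30 CPM against 8.22 and 5.63 CPM (log2 fold change 0.82, SE 0.26, edgeR adjusted p = 0.192). Irf2bp1 had 8.26 and 6.67 against 13.1 and 9.41 CPM (0.60, SE 0.21, adjusted p = 0.234), and Irf2bp2 had 5.86 and 4.77 against 7.92 and 7.04 CPM (0.50, SE 0.21, adjusted p = 0.320). The transcripts of the 3 genes are rich in GC, at 60.0%, 63.6% and 54.6% in that order, against a median of 48.9% over all genes tested. With an offset that removes each library's trend with GC content, their log2 fold changes were 0.60, 0.36 and 0.38. The part of GC content in the difference was not tested further.

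All 8 tested sensors had a log2 fold change above 0, with a median of 0.38 and 0 with an unadjusted p under 0.05. Above 0 were 5 of the 8 without control 1, and 6 when either library labelled vKO was left out. Ddx58, which encodes the RNA sensor RIG-I, had 6.85 and 8.81 CPM in the controls and 8.44 and 10.1 CPM in those labelled vKO (log2 fold change 0.24, SE 0.20, edgeR adjusted p = 0.663). Ifi203, of the DNA-binding Ifi200 family, had 0.599 and 1.73 against 1.83 and 2.34 CPM. Its groups did not overlap, with control 2 next to the nearer library labelled vKO. Mndal overlaps Ifi203 on the same strand. The pseudogene Ifi203-ps matches 17.9% of the Ifi203 transcript at 97.8% identity, so reads could be shared with either. Ifi209 ranged from 6.25 CPM in control 1 to 14.6 CPM in library 2 labelled vKO, with the groups overlapping.

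Among the 20 tested effectors, 1 had an unadjusted p under 0.05. Ifitm2, of a family that restricts virus entry, had 14 and 27 counts in the controls and 45 and 51 in the libraries labelled vKO (0.599 and 0.901 against 1.68 and 1.89 CPM). Its log2 fold change was 1.23 (SE 0.41, edgeR adjusted p = 0.209). Processed pseudogenes match its transcript at 97.0% and 95.6% over 66.0% and 65.5% of its length, so reads could be shared with them. The more abundant Ifitm7 differed little, with 68.4 and 56.7 CPM in the controls and 54.1 and 60.4 CPM in those labelled vKO (log2 fold change -0.13, edgeR adjusted p = 0.746). Ifi27 had 12.2 and 16.2 against 18.1 and 16.7 CPM, and Oasl2 had 3.29 and 6.80 against 4.93 and 6.34 CPM. In Oasl2, as in 6 of the 20 tested effectors in all, both libraries labelled vKO lay between the controls.

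The guanylate-binding proteins, interferon-induced GTPases that act against intracellular pathogens, all had a log2 fold change below 0 (7 of 7 tested, median -0.30), and 0 of 7 had an unadjusted p under 0.05. Gbp2 had 24 counts in control 1 and 242 in control 2, and 62 and 66 counts in the pair labelled vKO, which are 1.03 and 8.07 against 2.32 and 2.45 CPM. Control 2 exceeded control 1 by 7.86-fold (exact 95% interval 5.16 to 12.5). The log2 fold change between the labelled groups was -0.96 (SE 1.04, edgeR adjusted p = 0.771), and it was -1.77 without control 1 and 1.21 without control 2. Gbp4 followed the same order, with 0.214 and 3.0 CPM in the controls and 0.224 and 1.41 CPM in those labelled vKO. Gbp4, Gbp8 and Gbp9 overlap one another on the same strand, so their reads may not have been told apart. Gbp5 showed a narrower range, from 1.74 CPM in library 2 labelled vKO to 2.64 CPM in control 2. All 7 stayed below 0 with library totals (median -0.25) and with the GC offset (median -0.24). Above 0 were 6 of the 7 without control 2, 2 without library 1 labelled vKO and 1 without library 2 labelled vKO.

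In classical MHC class I, both libraries labelled vKO lay between the controls in all 5 genes. H2-K1 had 67.8 CPM in control 1, 103 in control 2, and 91.9 and 86.3 in the pair labelled vKO (log2 fold change 0.06, SE 0.18, edgeR adjusted p = 0.928). B2m, the light chain that class I molecules share, had 17.7 and 50.8 CPM in the controls and 47.1 and 34.4 CPM in those labelled vKO (0.24, SE 0.63, adjusted p = 0.920). H2-D1, the other classical heavy chain of this strain, had 19.0 and 38.4 CPM in the controls and 29.3 and 27.9 CPM in those labelled vKO (-0.01, SE 0.29, adjusted p = 0.994). Control 2 exceeded control 1 by 1.52-fold for H2-K1 (exact 95% interval 1.43 to 1.62), by 2.87-fold for B2m (2.57 to 3.2) and by 2.03-fold for H2-D1 (1.81 to 2.27). Tap1, a subunit of the peptide transporter, had 0.856 and 4.40 CPM in the controls and 1.34 and 2.45 CPM in those labelled vKO.

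Of the 9 class Ib genes tested, 7 also had both libraries labelled vKO between the controls. H2-T23, the mouse Qa-1 molecule, had 1.28 and 4.44 CPM in the controls and 3.66 and 3.56 CPM in those labelled vKO, and H2-Q4 had 2.31 and 6.4 against 4.18 and 4.11 CPM. H2-T22 had 1.45 and 4.74 against 2.95 and 2.56 CPM. Its transcript matches H2-T10 at 97.4% over 48.8% of its length, so their reads could be shared. H2-M5 did not follow that order: it had 3.21 and 2.80 CPM in the controls and 1.79 and 1.85 CPM in those labelled vKO, with no overlap (log2 fold change -0.72, SE 0.30, edgeR adjusted p = 0.302).

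The class II chains H2-Aa and H2-Eb1 were among the 5 members, at a mean of at least 1 CPM, with the largest gaps within a group. H2-Aa, an alpha chain, had 72 counts in control 1 and 862 in control 2, and 282 and 258 in the pair labelled vKO (3.08 and 28.8 against 10.5 and 9.56 CPM). Control 2 thus exceeded control 1 by 9.33-fold (exact 95% interval 7.33 to 12), while the libraries labelled vKO lay close to each other. The log2 fold change was -0.68 (SE 1.34, edgeR adjusted p = 0.893), turning from -1.52 without control 1 to 1.71 without control 2. Its partner chain H2-Ab1 had 5.82 and 17.1 against 9.64 and 8.01 CPM, and H2-Eb1 had 2.99 and 18.2 against 8.07 and 6.19 CPM. The invariant chain Cd74, which is no member and was named after its values were seen, followed the same order, with 4.53 and 26.8 against 14.1 and 12.6 CPM.

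H2-DMa, a chain of the peptide-loading factor for class II, did not follow that order. It had 7.32 and 7.57 CPM in the controls and 10.9 and 11.5 CPM in those labelled vKO, with no overlap (log2 fold change 0.59, SE 0.18, edgeR adjusted p = 0.181). Brd2, on the opposite strand, overlaps it and had between 337 and 384 CPM in the 4 libraries. Whether the counting used the strand is not given in the sources used here, so reads of the pair may not have been told apart. H2-DMb1, another chain of the class II loading factor, is named after its values were seen. It had 6.72 and 7.2 CPM in the controls and 5.34 and 5.23 CPM in those labelled vKO, also with no overlap. Its direction was opposite to that of H2-DMa (log2 fold change -0.40, SE 0.21, edgeR adjusted p = 0.421). The H2-DMb1 transcript matches H2-DMb2 at 95.4% over 60.4% of its length, so their reads could be shared.

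**Figure D5:**
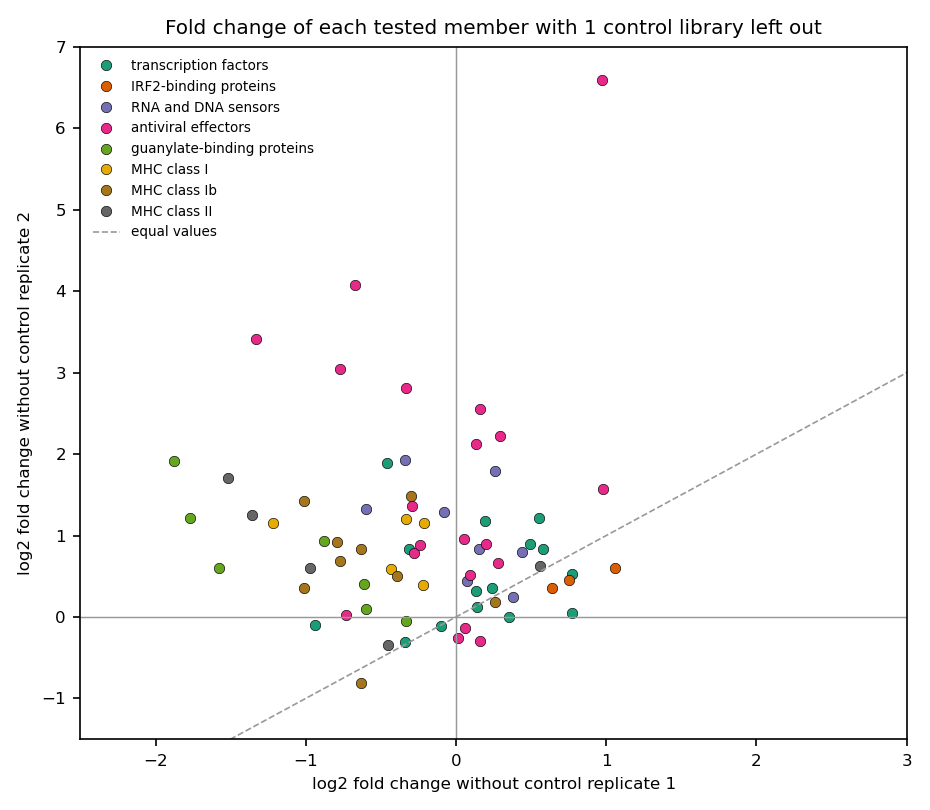
Log2 fold change (libraries labelled vKO over the remaining control) of each tested member without control library 1 on one axis and without control library 2 on the other. The upper left quadrant holds 34 members, below 0 without control 1 and above 0 without control 2. The point at 6.60 is Ifitm1, with 0 counts in control 1, whose value depends on the prior count.

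Leaving out either control library changed which members were called. Each such fit left 1 control library, assumed to vary like the pair labelled vKO, and both fits share that pair. Without control 1, 12 of 81 members tested were called, where 4.72% of all genes were called higher and 2.09% lower: Stat3, Irf2bpl and Irf2bp1 as higher in the libraries labelled vKO, and 9 as lower, among them H2-Aa, H2-Ab1, H2-Eb1, Gbp2, Gbp4 and Tap1. Without control 2, 16 of 76 members tested were called and all were higher, where 2.53% of all genes were called higher and 2.39% lower, among them H2-Aa, H2-Eb1, B2m, H2-T23, Irf9, Stat2, Stat3 and Stat6. H2-Aa and H2-Eb1 were therefore called in both fits with opposite directions, and Stat3 in both with the same direction. The sign was negative without control 1 and positive without control 2 in 34 of the 72 members (47.2%), against 17.6% of all genes tested. Because both fits share the pair labelled vKO, this largely restates that the pair lay between the controls and is not a separate result.

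Other genes of interferon signalling and antigen presentation, outside the symbol rule, gave 60 genes in the table, of which 58 were tested. 0 rose and 1 fell, where 0.279% of all genes rose and 0.114% fell, and the median log2 fold change was 0.07. At an unadjusted p under 0.05, 6 were higher (10.3%, against 7.65% of all genes) and 4 lower (6.90%, against 6.47%). The gene that fell was Nlrc5, known as the transactivator of MHC class I genes (chr8:94434356-94527272). It had 240 and 249 counts in the control libraries and 117 and 116 in those labelled vKO, or 9.29 ± 1.39 against 4.34 ± 0.0502 CPM (SD, n = 2 libraries; edgeR log2 fold change -1.10, SE 0.21, adjusted p = 0.0496). The call was lost with DESeq2 size factors (adjusted p = 0.0516), without robust estimation (adjusted p = 0.0539) and when either library labelled vKO was left out. In the authors' deposited table its adjusted p was 0.0104. The log2 fold change stayed between -1.24 and -0.94 when each library was left out in turn.

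The next smallest p-values in that list belonged to Lgals3bp, a secreted glycoprotein, and Trim25, a ubiquitin ligase that acts on RIG-I. Lgals3bp had 6.67 and 10.2 CPM in the controls and 13.7 and 14.5 CPM in those labelled vKO (log2 fold change 0.73, SE 0.21, edgeR adjusted p = 0.152). Trim25 had 5.73 and 7.20 against 10.7 and 10.3 CPM (0.69, SE 0.20, adjusted p = 0.152). Both libraries labelled vKO lay between the controls in 15 of the 58 genes (25.9%, against 7.73% of all genes), and control 2 was more than 2-fold above control 1 in 16 (27.6%, against 4.14%).

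Marker genes of other cell types were measured beside these values, since fewer cells of a type and less RNA per cell cannot be told apart in bulk tissue. Of 12 macrophage and monocyte markers, all were tested, 7 were more than 2-fold higher in control 2 than in control 1, and 6 had both libraries labelled vKO between the controls. Their summed level was 413 and 466 CPM in the controls and 390 and 418 CPM in those labelled vKO, and without Aif1, which alone gave between 278 and 344 CPM, it was 68.7 and 126 against 113 and 95.6 CPM. T and NK cell markers summed to 4.75 and 11 against 7.55 and 9.53 CPM, with Cd3g and Nkg7 at 0 counts in control 1 and Klrb1c at 0 in control 1 and in library 2 labelled vKO. Their part in the spread of the members was not tested.

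Peritubular myoid markers, with 48.2 and 81.1 against 78.5 and 55.4 CPM, also had both libraries labelled vKO between the controls in 4 of 5 genes. Dendritic cell markers summed to between 21.9 and 23.5 CPM in the 4 libraries, B cell markers to between 17.7 and 26.4 CPM, and neutrophil and mast cell markers to between 2.65 and 4.37 CPM. These sums hold only the listed markers with deposited counts: 4 of 6 dendritic, 3 of 5 B cell, and 2 of 6 neutrophil and mast cell markers. The T and NK cell sum held 9 of 10. Endothelial markers summed to 33.9 and 23.6 CPM in the controls and 42.8 and 36.9 CPM in those labelled vKO. Leydig cell markers summed to 296 and 360 against 472 and 351 CPM. The Sertoli cell markers all had a log2 fold change above 0 (9 of 9, median 0.44; 8 of 9 with the GC offset), with sums of 876 and 941 against 1240 and 1080 CPM, and Wt1 among them rose (31.3 and 32.8 against 54.2 and 50.7 CPM, log2 fold change 0.71, SE 0.13, edgeR adjusted p = 0.0418). That call was lost without robust estimation (adjusted p = 0.0501) and when either library labelled vKO was left out. Germ cell markers summed to 4580 and 4130 CPM in the controls and 3620 and 3730 CPM in those labelled vKO, and 7 of 10 had a log2 fold change below 0 (median -0.11, and -0.01 with the GC offset). In 5 of the 10 both libraries labelled vKO lay below both controls and in 2 above, against 22.6% and 22.7% of all genes. At an unadjusted p under 0.05, 3 were lower and 1 higher, against 6.47% and 7.65% of all genes. Both libraries labelled vKO lay above both controls in 7 of 9 Sertoli and 4 of 7 Leydig cell markers, and below in 0. Of these lists, 6 Sertoli and 4 Leydig cell markers were higher at an unadjusted p under 0.05, and 0 were lower. The part of the Sertoli and germ cell values in the higher values of Stat3, Stat2, Stat6 and the IRF2-binding proteins, and in the lower values of Stat4, was not tested.

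Read assignment limits some members. Matches of at least 95% over at least 300 bases to another transcript were found for 21 members, among them Ifit3 with Ifit3b (97.8%), Oas1a with Oas1g (97.6%) and Ifi204 with Ifi211 (96.9%), whose reads could be shared. A gene on the opposite strand overlapped 31 members, among them Stat3 with Stat5a, and a gene on the same strand overlapped 16, among them Irf9 with Rnf31.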

How the data were processed

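RNA-seq of mouse testis (2 libraries labelled control, 2 labelled Ythdf2-vKO) was read from 1 table of raw counts per gene and library, deposited by the authors and named by its column headers. Per the file headers, it also holds the authors' mean normalized count (a signal), log2 fold change, its standard error and test statistic (scores), p-value and adjusted p-value, with the column names of DESeq2. HISAT2 2.1.0 and HTSeq 0.6.1p1 are named in the submitters' processing notes. The genome build, the use of strand and the treatment of reads with several matches are not given in the sources used here. The table holds no gene with fewer than 10 counts over the 4 libraries, and 26 symbols that had become dates were restored through their identifiers.

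The deposited counts of the whole table were tested with edgeR 4.0.16 (limma 3.58.1, R 4.3.3): TMM scaling, the filterByExpr filter, a quasi-likelihood fit (robust) with genotype as the sole term, a two-sided F test and Benjamini-Hochberg adjustment over 21132 genes. The threshold was an adjusted p of 0.05. The standard error is the absolute log2 fold change divided by the square root of F, and fitted values used a prior count of 0.125. The script was tested on simulated data. Total counts ran from 24862518 to 29561182, and common biological variation was 13.5%. Gaps between libraries used log2 with 0.5 added to each count. Ratio intervals are exact binomial at 95% and cover counting error only.

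Coordinates, GC content and lengths came from GENCODE M21, where all 89 members were found by identifier, and promoters from RefSeq. The members and lists were chosen with earlier results of these data known. Genes are named if called, among the 3 highest CPM of a role, the 10 smallest p-values, or the 5 largest gaps within a group at a mean of at least 1 CPM; of other lists, called genes and the 3 smallest p-values of the pathway list. Alternatives were library totals, DESeq2 1.42.0 and its size factors, other filters, no robust estimation, a replicate block, a GC offset with and without the block, and leaving out each library. The values of 1 member are not reported here.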

Additional observations from a re-analysis of the deposited data

How the results depend on the processing

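Members called higher (0 with the chosen settings) numbered 1 with library totals alone, 1 with DESeq2 and 0 to 16 when each library was left out; members called lower (0) numbered 0 to 9. Members higher at an unadjusted p under 0.05 (9) ranged from 7 to 38 and members lower (3) from 0 to 19 when a library was left out, and 1 was lower both with library totals and with DESeq2. All genes called higher (59) numbered 181 with library totals, 137 with DESeq2 and 30 to 1048 when a library was left out. All genes called lower (24) numbered 37 with library totals, 15 without robust estimation, 66 with the GC offset, 80 with DESeq2 and 5 to 523. The members' median log2 fold change (0.21) was 0.10 with the GC offset and -0.23 to 0.81 when a library was left out. Library totals moved the median of all genes to 0.07.

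Same-numbered libraries were not taken as pairs: their deviations from the group means correlated at 0.0792 over 17911 genes, with 2 pairs. With the replicate block, members called higher were 4 (Stat2, Stat3, Stat6 and Irf2bpl), members at an unadjusted p under 0.05 and higher were 14, and all genes called were 627 higher and 390 lower. With the block and the GC offset these were 1 member (Stat3), 257 and 300.

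Directions reversed for H2-K1 (-0.07 with the GC offset, -0.03 with it and the block), H2-D1 (0.04 with library totals, 0.07 with the block), H2-Q4 (0.05 with the block) and Irf3 (-0.04 with the GC offset, with and without the block). When a library was left out, log2 fold changes that changed direction ranged from -0.22 to 0.39 for H2-K1, -0.33 to 1.20 for B2m, -0.43 to 0.59 for H2-D1, -1.52 to 1.71 for H2-Aa, -0.97 to 0.60 for H2-Ab1, -1.36 to 1.25 for H2-Eb1, -0.63 to 0.84 for H2-Q4, -0.30 to 1.49 for H2-T23, -0.79 to 0.92 for H2-T22, -1.22 to 1.15 for Tap1, -0.10 to 0.84 for Ifi209, -0.26 to 0.01 for Ifitm7, -0.28 to 0.78 for Oasl2, -1.77 to 1.21 for Gbp2, -0.61 to 0.41 for Gbp7, -0.47 to 0.03 for Gbp5 and -2.85 to 1.91 for Gbp4. The cause was not tested. Of 323 single-gene values under the other alternatives, 304 kept their direction and their side of the threshold. The 304 include the DESeq2 values of Ifitm2 and Gbp4, which kept their direction but had no adjusted p. With 2 libraries a group, the control gap sets the precision: the standard error of H2-Aa, for example, was 1.34.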
